A study of Mus musculus with 2 samples.

Results

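Kcnn4, Piezo1, Kcnq5, Kcng2 and Cacnb2, which encode potassium and calcium channel proteins, were followed across progenitor types, erythroid stages and genotypes in blood progenitors of the mouse fetal liver. They were taken by symbol, and all 5 were found once in each library among the 32285 genes listed. The set was chosen by values measured in these same libraries, among them the genotype ratios of Kcnn4, Kcnq5 and Cacnb2, so levels and genotype ratios are a description and carry no test. Livers came from C57BL/6 embryos at E14.5, and Lineage- c-Kit+ cells were profiled by 10x Genomics 3' single-cell RNA sequencing. The knockout library had the genotype CD45.2(+) Vav1-iCre Brd9fl/fl, in which a recombinase driven by the blood-cell promoter of Vav1 removes floxed Brd9, a subunit of a BAF chromatin remodelling complex. The control library, titled as wild type, was CD45.2(+) Brd9fl/fl, so both libraries carried the floxed alleles and no library carried the recombinase alone. There was 1 library for each genotype, and the number of embryos in each was not given in the sources used here. Genotype, recombinase and library therefore cannot be told apart, no p-value is given, and every interval is a 95% interval that covers counting error only.

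Kcnn4 encodes KCa3.1, the Gardos channel, a potassium channel opened by calcium-bound calmodulin. Piezo1 encodes a cation channel opened by membrane stretch. In red cells calcium that enters through PIEZO1 opens the Gardos channel, potassium and water leave, and the cell shrinks. In humans, variants that increase the activity of either protein cause hereditary xerocytosis, a disorder of dehydrated red cells. Kcnq5 encodes Kv7.5, a voltage-gated potassium channel of the KCNQ family. Kcng2 encodes Kv6.2, a silent subunit that conducts only when assembled with Kv2 subunits. Cacnb2 encodes an auxiliary beta subunit that helps to bring voltage-gated calcium channels to the membrane.

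In the mm10 build, Kcnn4 (ENSMUSG00000054342) lies at chr7:24370263-24386690 on the plus strand and Piezo1 (ENSMUSG00000014444) at chr8:122481698-122551329 on the minus strand. Kcnq5 (ENSMUSG00000028033) spans chr1:21398403-21961942 on the minus strand. Cacnb2 (ENSMUSG00000057914) spans chr2:14603088-14987908 on the plus strand. Of the annotated genes that overlap them, the one with the highest level was Ctu2, on the strand opposite to Piezo1, at 31.5 CPM (UMIs of the gene per 1000000 UMIs) in knockout and 29.9 CPM in control cells. The other overlapping genes in the feature list had below 1 CPM in both libraries. Promoter windows of 250 bases before and 50 after the start site are shown for the 2 genes with their highest levels in erythroid cells and for 2 with higher levels outside them. Sequences are from RefSeq on GRCm38.p6, and capitals mark matches to CCNCNCCC, the letters bound by erythroid and other KLF factors, searched on both strands. The 3' reads do not show which start site was used.
Kcnn4, chr7:24370013-24370312, plus strand: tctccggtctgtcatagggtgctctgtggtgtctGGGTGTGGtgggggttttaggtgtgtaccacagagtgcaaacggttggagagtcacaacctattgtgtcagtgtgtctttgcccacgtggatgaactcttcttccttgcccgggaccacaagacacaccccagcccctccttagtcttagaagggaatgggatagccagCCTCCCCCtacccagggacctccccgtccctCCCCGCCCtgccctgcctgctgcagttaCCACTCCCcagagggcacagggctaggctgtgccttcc
Piezo1, chr8:122551280-122551579, minus strand: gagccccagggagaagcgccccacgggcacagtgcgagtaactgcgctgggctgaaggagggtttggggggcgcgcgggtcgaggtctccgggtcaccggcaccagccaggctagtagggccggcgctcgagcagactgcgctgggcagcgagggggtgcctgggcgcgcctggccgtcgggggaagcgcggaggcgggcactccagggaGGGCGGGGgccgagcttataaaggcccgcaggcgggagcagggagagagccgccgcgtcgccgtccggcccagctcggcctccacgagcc
Kcnq5, chr1:21961893-21962192, minus strand: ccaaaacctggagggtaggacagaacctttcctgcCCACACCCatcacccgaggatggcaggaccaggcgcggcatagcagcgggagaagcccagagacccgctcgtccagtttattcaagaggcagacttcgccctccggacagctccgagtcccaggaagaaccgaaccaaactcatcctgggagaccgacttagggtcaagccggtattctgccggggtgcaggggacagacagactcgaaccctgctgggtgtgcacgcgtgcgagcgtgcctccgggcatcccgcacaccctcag
Cacnb2, chr2:14604056-14604355, plus strand: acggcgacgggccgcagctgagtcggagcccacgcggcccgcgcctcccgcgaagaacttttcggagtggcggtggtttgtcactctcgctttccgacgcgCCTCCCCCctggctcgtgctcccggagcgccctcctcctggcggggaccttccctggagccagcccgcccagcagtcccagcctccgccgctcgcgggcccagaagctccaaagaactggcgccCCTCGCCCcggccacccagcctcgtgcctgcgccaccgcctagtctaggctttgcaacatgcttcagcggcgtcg

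The Kcnn4 window held 4 matches to CCNCNCCC and only 6 CG dinucleotides. The Piezo1 window held 1 match and 34 CG dinucleotides. The Kcnq5 window shown had 1 match with 20 CG dinucleotides, and the Cacnb2 window shown had 2 matches with 35. Of 32851 promoter windows of this length in the table, 49.5% held the motif, and their median was 7 CG dinucleotides. The letters of GATA factor sites, AGATAA or AGATAG as well as TGATAA or TGATAG, searched on both strands, were in 29.8% of all windows and in none of the windows shown. A second start site listed for Kcnq5 and another for Cacnb2 also lacked them. These matches describe letters only. No promoter is shown for Kcng2.

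The 2 libraries held 7289 knockout and 7399 control barcodes with 271350214 and 292972312 UMIs (unique molecular identifiers, one for each captured RNA molecule), and 6757 knockout and 6860 control cells were analysed. The libraries shared 16 barcodes. Brd9, the targeted gene, had 7.06 CPM in knockout and 27.2 CPM in control cells, a log2 ratio of -1.95 (interval -2.02 to -1.87), and was lower in each of 11 cell classes. Classes were gates on summed marker genes, used none of the 5 channel genes and name cells by resemblance to a type. Erythroid cells numbered 4605 in the knockout and 4854 in the control, and were cut by their share of alpha-globin UMIs into early, intermediate and later cells at 3.09 and 21.1 per 10000 UMIs. In the erythroid gate, 324 knockout and 185 control cells lay within 0.8 to 1.25 times the gate, and in the megakaryocyte-erythroid gate 199 and 139 cells did. The gates are not equivalent in the 2 libraries, since megakaryocyte-erythroid markers averaged 6.91 per 10000 UMIs in knockout and 15.3 in control cells within their own gate, and erythroid markers averaged 12.8 and 15.3 within theirs. The part of these differences in the results below was not tested. Female cells made up 58.9% of the knockout library and 23% of the control library, so values are also given within each sex. A cell was called female with at least 3 Xist UMIs and at most 1 Y-linked UMI. It was called male with at most 1 Xist UMI, and no Y-linked UMI was required. The male group can therefore hold female cells with little captured Xist.

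Kcnn4 was the only one of the 5 genes that was lower in the knockout in all 11 classes, and it was mostly an erythroid transcript. Over all cells it had 107 CPM in knockout and 152 CPM in control cells, a log2 ratio of -0.51 (interval -0.53 to -0.49). Among 7869 genes that reached 10 CPM in the knockout or the control, 1.3% were lower by at least 0.5 on the log2 scale over all cells and 0.686% were higher by as much. The median log2 ratio of these genes was 0.03. Erythroid cells, which were 68.2% of knockout and 70.8% of control cells, held 91% and 91.9% of the Kcnn4 UMIs of these libraries. Erythroid over all other gated cells, the log2 ratio of Kcnn4 was 1.86 in the knockout and 1.73 in the control. A ratio of at least 0.5 there was reached by 13.3% of genes in the knockout and 16.8% in the control.

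**Figure D1:**
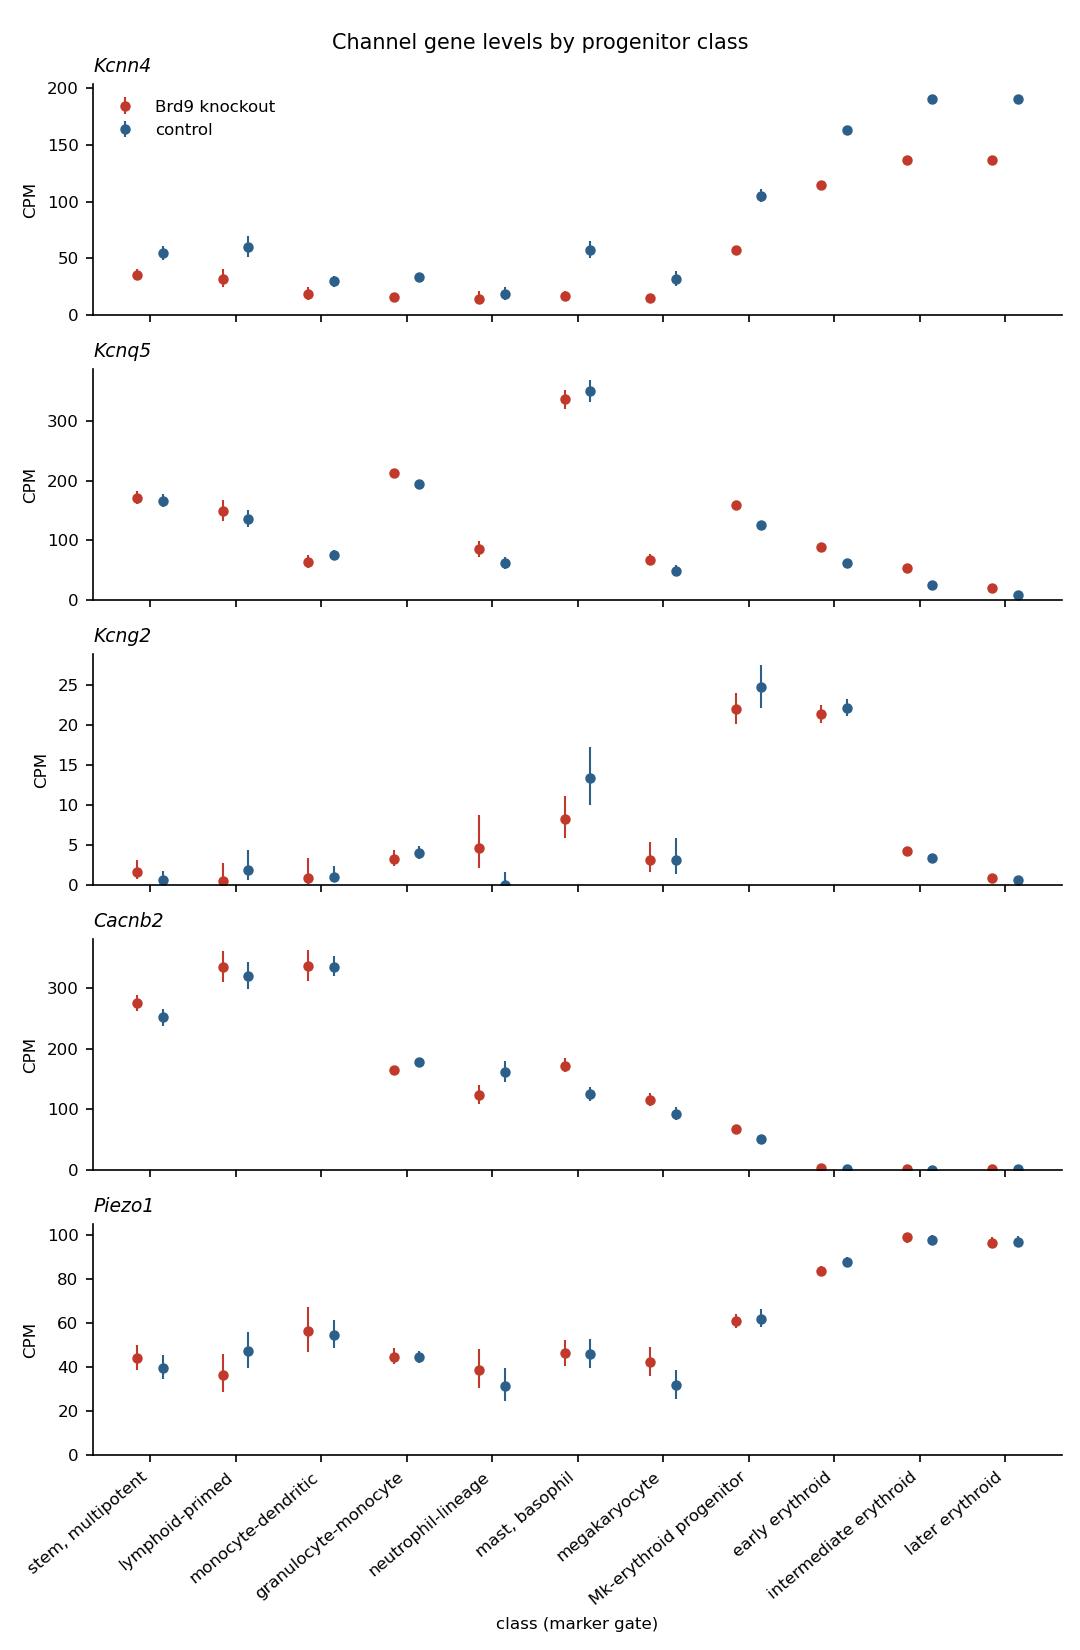
Level of each channel gene in CPM (vertical axes, each from 0) in 11 marker-gated classes, with Brd9 knockout in red at the left and control in blue at the right of each pair. Points are 1 library each and bars are exact Poisson 95% intervals. Kcnn4 and Piezo1 peak in erythroid cells, Kcng2 in megakaryocyte-erythroid progenitors and early erythroid cells, Kcnq5 in mast and basophil progenitors, and Cacnb2 in monocyte-dendritic and lymphoid-primed progenitors.

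In erythroid cells Kcnn4 had 129 CPM in knockout and 180 CPM in control cells (log2 ratio -0.48). There 0.759% of genes were lower by at least 0.5, a mark that Kcnn4 did not reach. Early erythroid cells had 115 CPM in knockout and 163 CPM in control cells. Intermediate cells had 137 CPM in knockout and 190 CPM in control cells, and later cells had the same rounded values. The order of the stages was thus alike in both libraries, with no overlap between the knockout and the control intervals at any stage. The log2 ratio of Kcnn4 was -0.51 in early, -0.47 in intermediate and -0.47 in later cells. At these stages 0.869%, 0.77% and 0.827% of genes were lower by at least 0.5, a mark that Kcnn4 reached in early cells only. Later over early cells, the log2 ratio of Kcnn4 was 0.26 in the knockout and 0.22 in the control.

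Kcnn4 was detected in most erythroid cells of both genotypes. After each cell was thinned to 18526 UMIs, 88.8% of knockout and 94.5% of control erythroid cells had a Kcnn4 UMI, against 97% and 99.4% without thinning. Thinning left out 83 knockout and 70 control cells. As a measure of free RNA, Alb, the albumin gene of hepatocytes, was found in 0.862% of thinned knockout and 1.15% of thinned control erythroid cells. The erythroid cells had median depths of 39345 UMIs in knockout and 41356 UMIs in control cells.

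Outside the erythroid gate the Kcnn4 ratios were further from 0, except in neutrophil-lineage cells. Megakaryocyte-erythroid progenitors had 57.2 CPM in knockout and 105 CPM in control cells, a log2 ratio of -0.88 (interval -0.99 to -0.78), past -0.5 with 1.2% of genes. Mast and basophil progenitors had 17.1 CPM in knockout and 57.1 CPM in control cells, the ratio furthest from 0 at -1.74 (interval -2.11 to -1.37), where 4.09% of genes lay at -0.5 or lower. In the control this class ranked beside stem and lymphoid-primed progenitors, whereas in the knockout it lay among the lowest classes, where neighbouring intervals overlapped. The megakaryocyte-erythroid markers in the mast gate also averaged lower in the knockout, at 9.68 against 18.7 per 10000 UMIs, and their part in the difference was not tested. With the megakaryocyte-erythroid gate set without Apoe and Muc13, 2 of its markers, the Kcnn4 ratio there was -1.03.

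Granulocyte-monocyte progenitors had 15.7 CPM of Kcnn4 in knockout and 33.9 CPM in control cells (log2 ratio -1.11), and megakaryocyte cells had 14.6 and 31.7 CPM (-1.12). Stem and multipotent progenitors had 35.4 CPM in knockout and 54.4 CPM in control cells (-0.62), lymphoid-primed progenitors 32.1 and 59.8 CPM (-0.90), and monocyte-dendritic progenitors 18.4 and 29.6 CPM (-0.69). Neutrophil-lineage cells had 14.4 CPM in knockout and 18.1 CPM in control cells, from 28 and 40 UMIs, and the interval of their ratio (-0.33) reached from -1.08 to 0.40. It was the only one of the 11 whose interval included 0. In the cluster with most neutrophil markers the ratio was -3.33, from 1.31 CPM in 34 knockout cells and 13.1 CPM in 133 control cells. The knockout level there is near the floor. In cells with a sex call the neutrophil-lineage ratio was -1.71 (interval -3.12 to -0.26) in female cells, 24 knockout and 7 control. It was -2.30 (interval -4.67 to -0.60) in male cells, 43 knockout and 88 control. The 28 knockout UMIs came from 8 of 71 cells, of which 1 held 7, and some cells of this class had no sex call. In other classes too, values within the sexes lay apart from the pooled ones. The ratio was -0.18 (interval -0.67 to 0.33) in female and -0.90 in male stem and multipotent progenitors, and -1.71 in female and -0.10 (interval -0.73 to 0.50) in male lymphoid-primed progenitors. It was -0.23 (interval -1.09 to 0.66) in female and -0.98 in male monocyte-dendritic progenitors, and -0.20 (interval -1.07 to 0.75) in female and -2.22 in male megakaryocyte cells. The share of genes lower by at least 0.5 was 1.61% in granulocyte-monocyte progenitors, 2.87% in megakaryocyte cells, 1.97% in stem and multipotent progenitors, 4.35% in lymphoid-primed, 3.69% in monocyte-dendritic and 4.66% in neutrophil-lineage cells. Of 6478 genes that could be followed in all classes, 0.648% were lower in each of the 11 and 3.91% were higher in each.

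**Figure D2:**
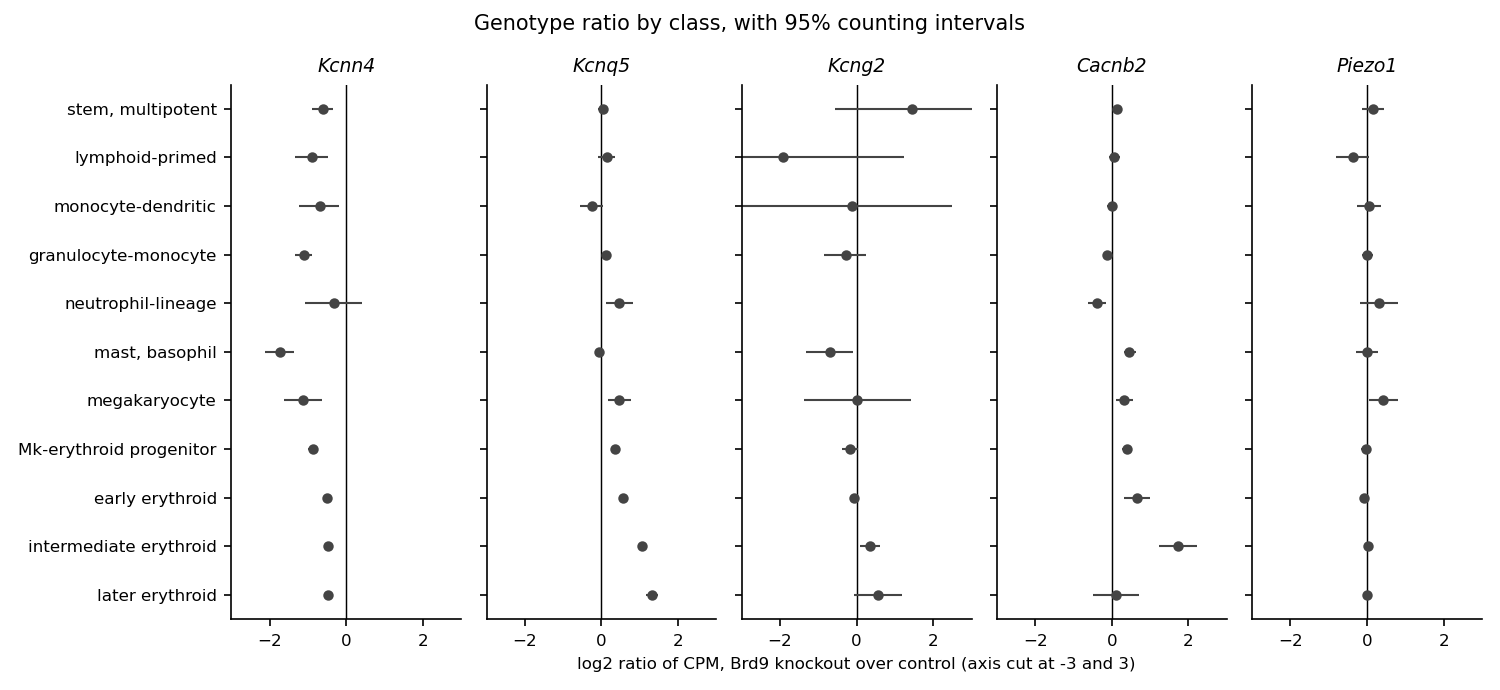
Log2 ratio of CPM, Brd9 knockout over control (horizontal axis, 0 marked), for each channel gene in 11 classes. Points are ratios of 1 library to 1 library and bars are conditional exact 95% intervals, with no point for Kcng2 in neutrophil-lineage cells, where the control had 0 UMIs. All Kcnn4 points lie left of 0, the Kcnq5 points move right along the 3 erythroid stages, and the Piezo1 points lie near 0 in the erythroid classes.

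Kcnn4 kept its direction in each of the other groupings tried, by alpha globin, erythroid markers, clusters and sex. In 10 bins of erythroid cells by alpha-globin share it was lower in the knockout in all 10, with log2 ratios from -0.54 to -0.40. In 8 bins by the summed level of erythroid markers, which also took in megakaryocyte-erythroid progenitors, it was lower in all 8. The ratio was -1.05 in the bin from 0 to 1 marker UMIs per 10000 and -0.40 in the bin above 18. The knockout level was 29.9 CPM in the lowest of these bins and 147 CPM in the highest, and the control level was 61.9 CPM in the lowest and 194 CPM in the highest. Clustering the cells without gates gave 24 blood-cell clusters, and Kcnn4 was lower in the knockout in all 24, with ratios from -0.56 to -0.24 in the 16 erythroid clusters. The libraries were not aligned before clustering, and some clusters came mostly from 1 library. An erythroid cluster held 442 knockout and 35 control cells, and another held 46 and 485. Within female cells Kcnn4 had 109 CPM in knockout and 155 CPM in control cells, and within male cells 101 and 150 CPM.

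Piezo1 was also highest in erythroid cells, with nearly the same level in both genotypes. Over all cells it had 82.7 CPM in knockout and 83.6 CPM in control cells, a log2 ratio of -0.02 with an interval of -0.04 to 0.01. Early erythroid cells had 83.7 CPM in knockout and 87.8 CPM in control cells, intermediate cells 98.9 and 97.9 CPM, and later cells 96.4 and 96.9 CPM. The only erythroid stage whose ratio interval lay off 0 was the early one, at -0.07 (interval -0.12 to -0.02).

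Along the 10 alpha-globin bins Piezo1 was lowest in the 2 bins with least alpha globin in the knockout, at 80.5 and 79.1 CPM, and in the bin with least in the control, at 82 CPM. Its highest levels were 99.9 CPM in knockout and 101 CPM in control cells, in the middle bins. The ratios over these bins ran from -0.12 to 0.10. Erythroid over all other gated cells, the log2 ratio of Piezo1 was 0.85 in the knockout and 0.96 in the control. A ratio of at least 0.5 in that comparison was reached by 13.3% of genes in the knockout and by 16.8% in the control.

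Outside the erythroid gate Piezo1 ranged from 36.5 to 60.8 CPM in the knockout and from 31.2 to 62 CPM in the control. Megakaryocyte-erythroid progenitors were highest of these in both libraries, and their neighbours in the order, the monocyte-dendritic progenitors, had overlapping intervals. Megakaryocyte cells had 42.2 CPM in knockout and 31.7 CPM in control cells, from 165 and 93 UMIs, a log2 ratio of 0.41 (interval 0.04 to 0.80). The ratio was 0.15 in the cluster with most megakaryocyte markers, and within each sex its interval included 0, at 0.54 in female and 0.32 in male cells. Lymphoid-primed progenitors had 36.5 CPM in knockout and 47.2 CPM in control cells, and the interval of that ratio (-0.37) included 0.

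**Figure D3:**
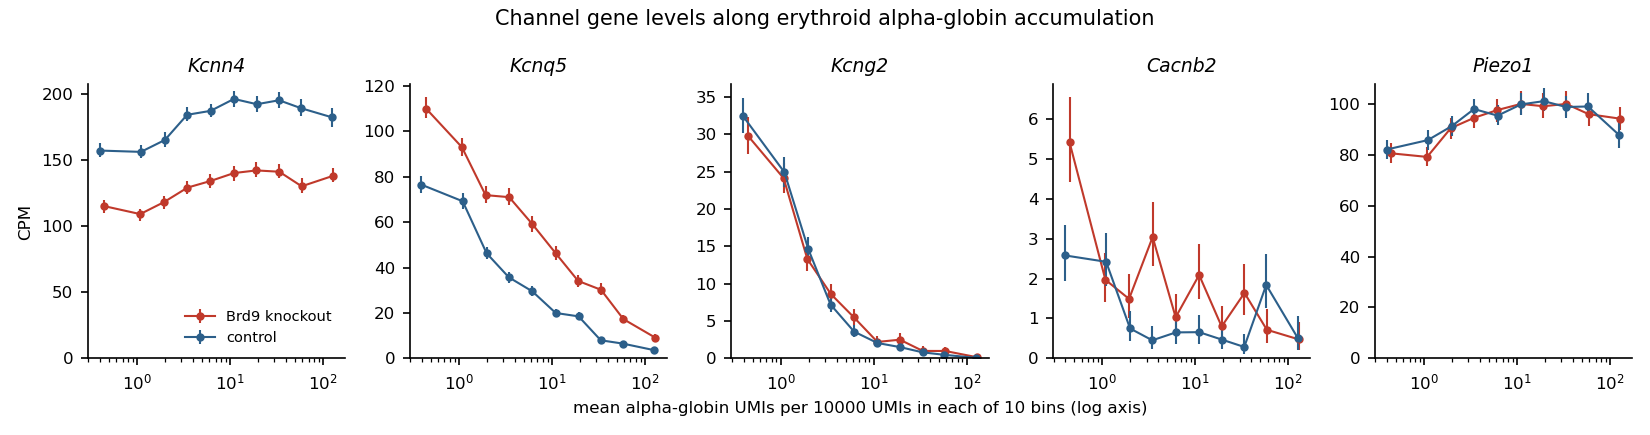
Level of each channel gene in CPM (vertical axes, each from 0) against the mean alpha-globin UMIs per 10000 UMIs (log axis) in 10 bins of erythroid cells set over both libraries, with Brd9 knockout in red and control in blue. Bars are exact Poisson 95% intervals. The Kcnn4 curves run apart with the knockout below in all 10 bins, the Kcnq5 curves run apart with the knockout above in all 10, and the Kcng2 and Piezo1 curves nearly coincide.

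Kcnq5 was a progenitor transcript whose level was lower at each later erythroid stage, and within erythroid cells it was higher in the knockout. Mast and basophil progenitors had the highest level, 336 CPM in knockout and 350 CPM in control cells. Granulocyte-monocyte progenitors followed with 212 and 195 CPM, and stem and multipotent progenitors with 171 and 166 CPM. In the knockout library the interval of the stem class overlapped that of the megakaryocyte-erythroid progenitors, which had 159 CPM, against 126 CPM in the control. Later erythroid cells were lowest, with 19.4 CPM in knockout and 7.75 CPM in control cells.

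In erythroid cells as a whole Kcnq5 had 55.7 CPM in knockout and 33.4 CPM in control cells (log2 ratio 0.74), and 0.519% of genes were higher there by at least 0.5. Over all cells Kcnq5 had 83.7 CPM in knockout and 62.2 CPM in control cells, a log2 ratio of 0.43 (interval 0.40 to 0.46). In early erythroid cells it had 89.5 CPM in knockout and 61.1 CPM in control cells (0.55), in intermediate cells 53.3 and 25.5 CPM (1.06), and in later cells 19.4 and 7.75 CPM (1.32, interval 1.17 to 1.48). At these stages, 0.513%, 1.12% and 0.854% of genes were higher by at least 0.5. The log2 ratio of later over early cells was -2.21 in the knockout and -2.98 in the control. A ratio of -0.5 or lower in that comparison was reached by 14.8% of genes in the knockout and 17.5% in the control.

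The size of the Kcnq5 difference depended on how stage was measured. In the 10 alpha-globin bins Kcnq5 was higher in the knockout in all 10, with log2 ratios from 0.43 to 1.92. In the bin with least alpha globin it had 110 CPM in knockout and 76.5 CPM in control cells, and in the bin with most 9.17 and 3.62 CPM. In the 5 highest of the bins by erythroid marker level, from 3 marker UMIs per 10000 upward, the ratios ran from 0.30 to 0.45. Erythroid markers were lower in the knockout within the alpha-globin stages, at an average of 17.9 against 22.2 per 10000 UMIs in later cells, and their part in the Kcnq5 ratios was not tested. With the 3 stages set by erythroid membrane genes, the later over early ratio was -2.07 in both libraries. By clusters Kcnq5 was higher in the knockout in 19 of 24, and in 14 of the 16 erythroid ones.

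**Figure D4:**
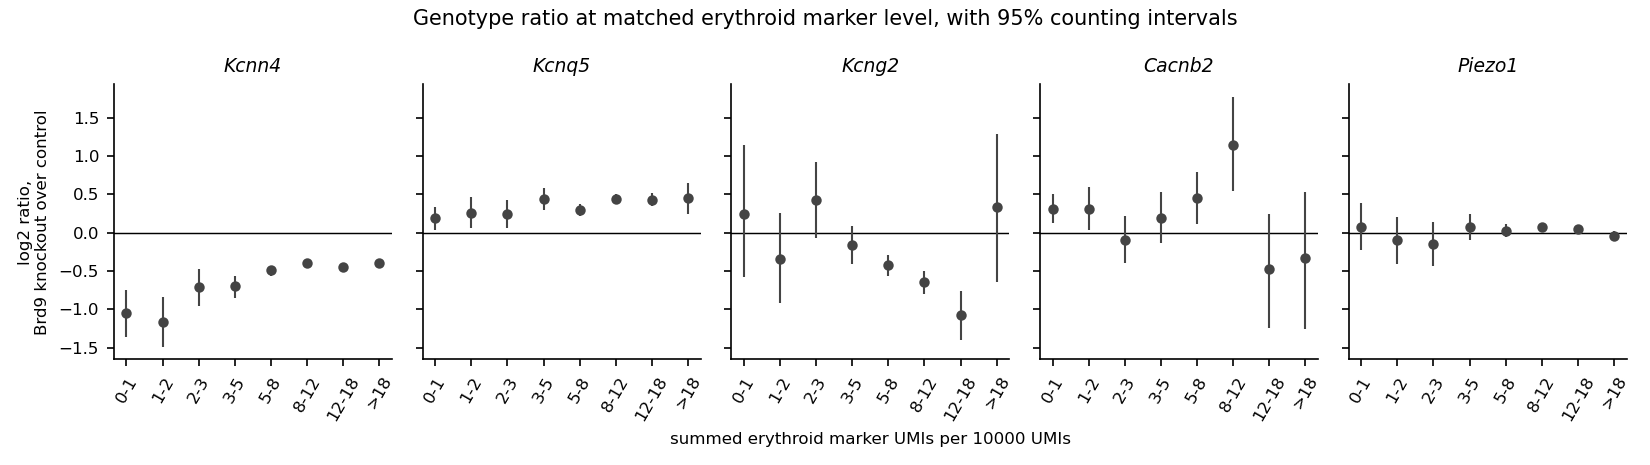
Log2 ratio of CPM, Brd9 knockout over control (vertical axis, 0 marked), for each channel gene in 8 bins of megakaryocyte-erythroid and erythroid gated cells by summed erythroid marker UMIs per 10000 UMIs (horizontal axis). Bars are conditional exact 95% intervals. Kcnn4 lies below 0 and Kcnq5 above 0 in all 8 bins, Piezo1 stays between -0.15 and 0.08, and Kcng2 is below 0 in the bins from 5 to 18.

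In stem, lymphoid-primed and mast progenitors the Kcnq5 genotype ratios were near 0. They were 0.04 in stem and multipotent progenitors, 0.14 in lymphoid-primed progenitors and -0.06 in mast and basophil progenitors, each with an interval that included 0. Under a gate 1.5 times as strict, mast and basophil progenitors gave -0.19 (interval -0.31 to -0.08). On the other side of 0, the cluster with most mast and basophil markers had 458 CPM in knockout and 389 CPM in control cells. Within stem and multipotent progenitors the ratio was -0.28 (interval -0.50 to -0.05) in female and -0.06 (interval -0.26 to 0.13) in male cells. Monocyte-dendritic progenitors had 63.3 CPM in knockout and 75.6 CPM in control cells (-0.25, interval -0.55 to 0.03), with 0.55 (interval 0.03 to 1.10) in female and -0.80 (interval -1.34 to -0.29) in male cells, on opposite sides of 0. Granulocyte-monocyte progenitors gave 0.12 (interval 0.05 to 0.19), but 0.35 in female cells, -0.04 in male cells and 0.06 (interval -0.01 to 0.12) with marked doublets kept, and megakaryocyte-erythroid progenitors 0.34 (interval 0.26 to 0.42). Megakaryocyte cells had 67.6 CPM in knockout and 49.1 CPM in control cells (0.46), but the ratio was 0.05 under a gate 1.5 times as strict. Neutrophil-lineage cells had 85.2 CPM in knockout and 61.5 CPM in control cells (0.47), and 35.3 and 79.3 CPM in the cluster with most neutrophil markers, which turned the direction.

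Kcnq5 was detected in a smaller share of cells at the later stage. After thinning, 55.5% of knockout and 42.5% of control early erythroid cells had a Kcnq5 UMI, against 68.4% and 56.4% without thinning. In later erythroid cells the thinned shares were 15.6% in the knockout and 8.25% in the control, against 22.1% and 12.9%. Alb was found in at most 1.19% of cells at these stages after thinning.

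Kcng2 (ENSMUSG00000059852), which spans chr18:80294546-80364254 on the minus strand of mm10, was highest at the entry to the erythroid lineage. Megakaryocyte-erythroid progenitors had 21.9 CPM in knockout and 24.7 CPM in control cells, and early erythroid cells had 21.3 and 22.1 CPM, with overlapping intervals between these classes in each library. Mast and basophil progenitors came next in both libraries, at 8.18 CPM in knockout and 13.3 CPM in control cells. Intermediate erythroid cells had 4.22 CPM in knockout and 3.31 CPM in control cells, and later cells 0.921 and 0.631 CPM. The log2 ratio of later over early cells was -4.53 in the knockout and -5.13 in the control, the furthest from 0 of the 5 genes in both libraries. In the alpha-globin bins Kcng2 was highest in the bin with least alpha globin, at 29.8 CPM in knockout and 32.4 CPM in control cells, and lowest in the bin with most, from 3 and 1 UMIs. By erythroid marker level it was highest between 3 and 5 marker UMIs per 10000, at 35.5 CPM in knockout and 39.7 CPM in control cells.

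In the gated classes with the highest Kcng2 levels, its genotype ratio was close to 0. It was -0.17 in megakaryocyte-erythroid progenitors and -0.06 in early erythroid cells, both with intervals that included 0. Under a gate 1.5 times as strict it was -0.43 in megakaryocyte-erythroid progenitors. It was 0.35 in intermediate erythroid cells (interval 0.10 to 0.60) and -0.70 in mast and basophil progenitors, where it had 8.18 CPM in knockout and 13.3 CPM in control cells (interval -1.32 to -0.09). Within the sexes, intermediate erythroid cells gave 0.38 in female and 0.25 in male cells, both with intervals that included 0, and mast and basophil progenitors gave -0.69 (interval -1.76 to 0.50) in female and -1.60 in male cells. In male early erythroid cells the ratio was -0.27 (interval -0.43 to -0.11). Set by erythroid marker level, Kcng2 was lower in the knockout in the bins from 5 to 18, with 25.4 CPM in knockout and 34 CPM in control cells in the bin from 5 to 8. The ratio was -1.08 in the bin from 12 to 18. The direction in erythroid cells thus depended on how stage was measured. By clusters Kcng2 was lower in the knockout in 17 of 24 and higher in 6. Of the 16 erythroid clusters it was lower in 12 and higher in 4. Ratio intervals lay below 0 in 4 of the 24 clusters and above 0 in 0.

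Granulocyte-monocyte progenitors had 3.25 CPM of Kcng2 in knockout and 3.95 CPM in control cells, and 4.99% and 6.34% of thinned cells had a UMI, beside 0.525% and 1.18% for Alb. Without thinning these Kcng2 shares were 8.48% and 11.3%. Few UMIs were found in some other classes. Stem and multipotent progenitors had 9 UMIs in knockout and 3 in control cells, and neutrophil-lineage cells had 9 UMIs in knockout and 0 in control cells, for which the exact interval reaches 1.67 CPM. After thinning, 27.7% of knockout and 30.7% of control early erythroid cells had a Kcng2 UMI, against 49% and 50.8% without thinning. In later erythroid cells the thinned shares were 1.34% and 0.66%, beside 0.955% and 1.19% for Alb. Free RNA of Kcng2 itself was not measured, so whether these later levels lie above background cannot be told.

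Cacnb2 was high in stem, lymphoid-primed and myeloid progenitors and almost absent from erythroid cells. Monocyte-dendritic progenitors had 336 CPM in knockout and 335 CPM in control cells, and lymphoid-primed progenitors had 335 and 320 CPM, with overlapping intervals. Stem and multipotent progenitors had 275 CPM in knockout and 252 CPM in control cells. Levels were lower in granulocyte-monocyte progenitors (164 and 178 CPM), neutrophil-lineage cells (124 and 161 CPM) and megakaryocyte cells (115 and 92.3 CPM). Erythroid cells had 1.89 CPM in knockout and 1.06 CPM in control cells, and held 4.1% and 2.17% of the Cacnb2 UMIs of their libraries. Erythroid over all other gated cells, the log2 ratio was -6.24 in the knockout and -7.29 in the control. A ratio of -0.5 or lower in that comparison was reached by 24.1% of genes in the knockout and 25.4% in the control.

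The genotype ratio of Cacnb2 had no single direction. Mast and basophil progenitors had 172 CPM in knockout and 125 CPM in control cells (log2 ratio 0.46, interval 0.31 to 0.62). Megakaryocyte-erythroid progenitors had 67.3 CPM in knockout and 51.4 CPM in control cells (0.39, interval 0.26 to 0.52), and 0.97 was the ratio in the cluster with most of their markers. Neutrophil-lineage cells (-0.38, interval -0.62 to -0.14) and granulocyte-monocyte progenitors (-0.12, interval -0.19 to -0.04) lay on the other side of 0. Within each sex the interval in neutrophil-lineage cells included 0, at -0.33 in female and -0.08 in male cells. Granulocyte-monocyte progenitors gave -0.05 (interval -0.18 to 0.07) in female and -0.25 in male cells. The ratio had opposite signs in the sexes in stem and multipotent progenitors (-0.21 in female and 0.28 in male cells) and in lymphoid-primed progenitors (0.48 and -0.22). In mast and basophil progenitors it was 1.06 in female and 0.32 in male cells. Over all cells Cacnb2 had 34.7 CPM in knockout and 37.8 CPM in control cells (-0.12), and the ratio was 0.04 when the knockout classes were weighted to the shares of the control. Granulocyte-monocyte progenitors, which are high in Cacnb2, were 5.93% of knockout and 10.2% of control cells.

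Cacnb2 UMIs were few in erythroid cells. After thinning, 2.26% (interval 1.84 to 2.73) of knockout and 1.42% (interval 1.11 to 1.8) of control erythroid cells had one, against 3.67% and 2.82% without thinning. The shares for Alb were 0.862% (interval 0.614 to 1.18) and 1.15% (interval 0.867 to 1.49). Intervals of Cacnb2 and Alb lay apart in the knockout and overlapped in the control. Free RNA of Cacnb2 itself was not measured, so its background is not known. In intermediate erythroid cells there were 126 UMIs in knockout and 47 in control cells (log2 ratio 1.72), and 1 knockout cell held 23 of the 126. This ratio was 0.97 within female cells and 0.65 within male cells, 0.57 under the stricter gate, 0.59 by clusters and 0.45 with marked doublets kept. Of the pore-forming subunits, Cacna1a had 5.48 CPM in knockout and 6.22 CPM in control cells over all cells, and Cacna1c had 3.87 and 6.2 CPM. Cacna1c was mainly found in erythroid cells, at 4.65 CPM in knockout and 7.6 CPM in control cells, where Cacnb2 was lowest.

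**Figure D5:**
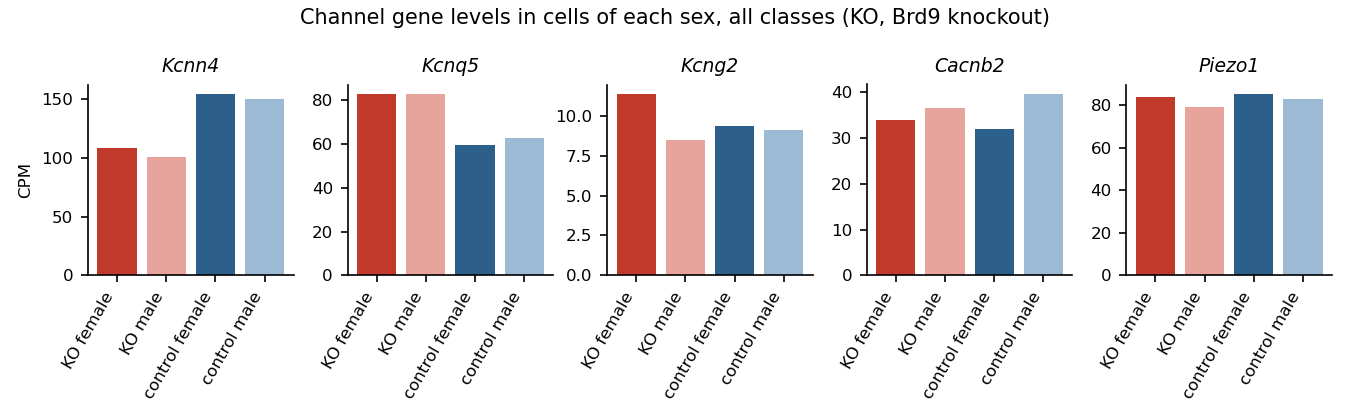
Level of each channel gene in CPM (vertical axes, each from 0) over all classes in female and male cells of the Brd9 knockout library (red shades, left) and the control library (blue shades, right). Female cells had at least 3 Xist UMIs and at most 1 Y-linked UMI, and male cells had at most 1 Xist UMI, with no Y-linked UMI required. Bars are 1 value each with no error shown. Kcnn4 is lower and Kcnq5 higher in both knockout bars than in either control bar.

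Within each sex, Kcnn4 and Kcnq5 kept their direction over all cells. Kcnq5 had 83 CPM in knockout and 59.3 CPM in control female cells, and 82.7 and 62.9 CPM in male cells. Kcng2 had 11.4 CPM in knockout and 9.39 CPM in control female cells, and 8.51 and 9.14 CPM in male cells, so its small ratio changed side between the sexes. Cacnb2 had 34 CPM in knockout and 32 CPM in control female cells, and 36.6 and 39.7 CPM in male cells, and also changed side. Piezo1 had 83.9 CPM in knockout and 85.5 CPM in control female cells, and 79.3 and 83 CPM in male cells.

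Over the 11 classes of both libraries, 22 points that share libraries and depth, the log2 levels of Kcnn4 and Piezo1 had a Pearson correlation of 0.833, while Cacnb2 had -0.828 with Kcnn4 and -0.878 with Piezo1. Kcnq5 and Cacnb2 had 0.692. Among 9197 other genes, those with the pattern most like that of Kcnn4 were Svbp (0.926), Mtif2 (0.922) and Piga (0.919). For Piezo1 they were Txn2 (0.961), Psmc2 (0.958) and Gtf2f1 (0.954). For Kcnq5 they included Tradd (0.921) and Gpc3 (0.92), and for Kcng2 they were Txndc17 (0.885), Stat5a (0.862) and Scrib (0.859). For Cacnb2 they were Cyth4 (0.992), Ppp1r18 (0.991) and Coro1a (0.99), of which Coro1a, an actin regulator of white blood cells, had 965 CPM in monocyte-dendritic progenitors of both libraries. These names depended on the measure. With a pseudocount of 10 CPM in place of 1, 2 of 3 were named again for Kcnn4, 1 for Kcnq5, 2 for Kcng2, 0 for Cacnb2 and 3 for Piezo1. With Spearman in place of Pearson, 0 of 3 were named again for Kcnn4, 2 for Kcnq5, 1 for Kcng2, 0 for Cacnb2 and 1 for Piezo1. In later erythroid cells Coro1a had 4.67 CPM in knockout and 2.35 CPM in control cells.

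The wider channel and transport lists are read beside all genes, of which 0.686% were higher and 1.3% lower by at least 0.5 on the log2 scale over all cells. Of 96 other genes with Kcn symbols, 3 reached 10 CPM in either library, and 0 of these 3 lay past 0.5. They were Kcnab2, an auxiliary potassium channel subunit, at 15 CPM in knockout and 14.1 CPM in control cells, Kcnk5, a background potassium channel, at 11 and 9.27 CPM, and Kcnq1ot1, a noncoding RNA. Kcnk12 had 6.14 CPM in knockout and 7.96 CPM in control cells. Of 25 other Cacn genes, 0 reached 10 CPM. Of 12 genes of calcium release and store-operated entry, 7 reached 10 CPM, with Stim1, the calcium sensor of the endoplasmic reticulum, at 53.9 and 50.1 CPM and Itpr1, a release channel, at 57.9 and 52.3 CPM, and 0 lay past 0.5.

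Of 21 TRP and other cation channels, 5 reached 10 CPM and 0 lay past 0.5, with Trpm7 highest at 81.6 CPM in knockout and 79 CPM in control cells. Among 10 calcium pumps, exchangers and uptake genes at that level, only Atp2a3, a calcium pump of the endoplasmic reticulum, lay past 0.5, with 10.6 CPM in knockout and 7.38 CPM in control cells (0.53). The 7 calmodulin and calcineurin pathway genes at 10 CPM had a median of 0.09 beside 0.03 for all genes, and 0 lay past 0.5.

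Among 12 red cell ion and volume transporters at 10 CPM, only Aqp1, the red cell water channel, lay past 0.5, with 19.9 CPM in knockout and 31.1 CPM in control cells (-0.64). Atp1b2, a sodium pump subunit, had 40.2 CPM in knockout and 52.2 CPM in control cells (-0.38). The 5 stomatin and membrane skeleton genes at 10 CPM had a median of -0.18, with Add2, an adducin, at 69.9 CPM in knockout and 93.7 CPM in control cells, and Ank1, an ankyrin, at 220 and 219 CPM. Markers of liver cells were low, with 13.3 CPM summed over 5 hepatocyte genes in knockout and 30.8 CPM in control cells, and 10.3 and 12.7 CPM over 5 endothelial genes.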

How the data were processed

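Cell Ranger 7.2.0 and the mm10 build were used by the submitters, per the submitters' processing notes, and the deposited matrices held whole-number UMI counts for each gene and barcode, not normalized. For intronic reads, the setting used was not given in the sources used here. Counts came from 10x 3' libraries, per the labels' protocols. Barcodes with fewer than 1000 genes, fewer than 2000 UMIs or over 10% mitochondrial UMIs were left out, and Scrublet in scanpy 1.11.5 marked 244 (3.49%) knockout and 240 (3.38%) control cells as doublets, which were removed. Classes were gates on summed marker UMIs per 10000 with at least 50 cells in each library. Their levels were set after marker distributions were seen and used no channel gene. UMIs of each class were summed within a library and expressed as CPM with exact Poisson intervals, and as log2 ratios of knockout over control with conditional exact intervals. Shares of cells have exact Clopper-Pearson intervals. Ratios and intervals were also run on simulated Poisson counts with known folds. These counts hold only the counting error that the intervals assume, so they do not show how the intervals fare with spread between cells or libraries. The genes and lists were chosen with earlier results of these data known. Of each list, the 4 genes of highest level and those past 0.5 on the log2 scale with at least 10 CPM in either library were eligible to be named, and for likeness the 3 genes of highest Pearson correlation of log2(CPM + 1), leaving out gate markers, Xist, Y-linked, mitochondrial, ribosomal and predicted genes. Some genes that this rule names are not reported here.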

Additional observations from a re-analysis of the deposited data

Results flagged for a closer look

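For 3 of the 5 genes the log2 ratio of knockout over control lay on opposite sides of 0 in 2 classes, each with a counting interval that excluded 0. The difference between the classes was not tested, because each genotype had 1 library. Kcng2 gave 0.35 in intermediate erythroid cells and -0.70 in mast and basophil progenitors, with intervals that included 0 within each sex in the first class and in female cells in the second. Cacnb2 gave 1.72 in intermediate erythroid cells, where its level was low, at 2 CPM in knockout and 0.607 CPM in control cells. There 1 knockout cell held 23 of the 126 knockout UMIs. Within the sexes that ratio was 0.97 in female and 0.65 in male cells, and the male interval included 0. Cacnb2 gave -0.38 in neutrophil-lineage cells, where it was -0.33 in female and -0.08 in male cells, both with intervals that included 0. Piezo1 gave 0.41 in megakaryocyte cells, with intervals that included 0 within each sex, and -0.07 in early erythroid cells.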

How the results depend on the processing

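Over all cells, the log2 ratio of knockout over control in female cells alone was 0.48 for Kcnq5, 0.28 for Kcng2 and 0.09 for Cacnb2. In male cells alone it was -0.58 for Kcnn4, 0.39 for Kcnq5, -0.10 for Kcng2 and -0.07 for Piezo1. With a median-of-ratios scaling it was -0.54 for Kcnn4, 0.40 for Kcnq5 and -0.05 for Piezo1, and with knockout classes weighted to control shares -0.01 for Kcng2 and 0.04 for Cacnb2. With stages set by erythroid membrane genes, later over early cells gave 0.31 for Kcnn4 in the knockout, -2.07 for Kcnq5 in both libraries, -4.63 for Kcng2 in the control, -2.80 for Cacnb2 in the knockout, and 0.36 in the knockout and 0.40 in the control for Piezo1. The Kcng2 ratio turned direction in lymphoid-primed progenitors with male cells alone (0.21, interval -5.51 to 3.84). All cells of that class gave -1.93 (interval -7.50 to 1.23), from only 1 knockout and 5 control UMIs. The Kcng2 ratio also turned in later erythroid cells staged by membrane genes (-0.15), against 0.55 (interval -0.08 to 1.19) when staged by alpha globin. The cause of these changes was not tested. At a minimum of 5 CPM, 89 genes were higher and 163 lower by 0.5, and at 50 CPM 9 and 31, against 54 and 102 at 10 CPM. Of 65 class values under the alternatives, the direction was kept in all 65 for Kcnn4, in 55 for Kcnq5, in 57 for Cacnb2 and in 45 for Piezo1, and in 47 of 59 for Kcng2. Bins of erythroid marker level, the 10 alpha-globin bins and the gate without Apoe and Muc13 were chosen after seeing the data. No paired analysis was possible because each genotype had 1 library.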
